A study of Mus musculus with 6 samples.

Results

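The core circadian clock loop was followed in mouse skin through 10 genes: Arntl (also called Bmal1), Clock, Npas2, Per1, Per2, Per3, Cry1, Cry2, Nr1d1 and Nr1d2. Every probe set whose sole annotated symbol was one of these genes was taken, which gave 23 probe sets of 45037 non-control probe sets on the array, for 10 of 18193 genes. Total RNA from skin of 6 C57BL/6 mouse samples had been hybridised to single-channel Affymetrix arrays, 1 array per sample. The groups were 3 wild-type samples, labelled WT, and 3 knock-in samples, labelled KA, whose source is given as KAB6; the gene that was changed is not named in the labels. The labels give no sex, age, body site, treatment or time of day of collection, nor do they tie each sample to its own animal, so p-values measure the spread between these 6 samples, which may be technical.

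The clock of a mammalian cell is a loop of transcription factors that feeds back on itself over the day. ARNTL pairs with CLOCK or its paralog NPAS2 and binds E-box sequences to switch on the Per and Cry genes, whose protein products then block that pair. The nuclear receptors NR1D1 and NR1D2 (REV-ERB alpha and beta), themselves switched on through E-boxes, repress Arntl through ROR elements, so that Arntl and Nr1d1 transcripts peak at opposite times of day in most tissues. A further arm runs through D-boxes, which the output factors DBP, TEF and HLF activate and NFIL3 represses. In skin the clock runs in keratinocytes, fibroblasts and hair follicle cells, and its genes are known to take part in the timing of the hair cycle.

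The sequences below are from the loop genes that held a match to an element named here, whether or not the gene differed between the groups. They are from the RefSeq promoter table of build GRCm38.p6, which held 9 of the 10 genes in 13 windows of 300 bases (250 before and 50 after a transcription start). Capitals mark exact matches, on either strand, to E-box CACGTG, the E-box variant CACGTT, the D-box TTATGTAA or TTACGTAA, the ROR element core TAGGTCA or TGGGTCA, or the CRE TGACGTCA. Of the 9 genes, 6 had at least 1 match, and 0 pairs of matches overlapped. Clock, Npas2 and Nr1d2 had none, nor did Dbp, which was scanned as well. The count of 6 genes pools 7 spellings, and the share of all windows with any of them was not computed. The first sequence, upstream of Per3 at chr4:151044708-151044915 on the minus strand, holds 2 D-boxes at -205 and -158 from the start.
Per3: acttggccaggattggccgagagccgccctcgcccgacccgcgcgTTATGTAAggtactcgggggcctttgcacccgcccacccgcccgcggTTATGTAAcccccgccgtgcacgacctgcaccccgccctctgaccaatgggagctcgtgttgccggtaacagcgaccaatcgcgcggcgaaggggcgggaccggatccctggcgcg
Upstream of Nr1d1, at chr11:98775378-98775627 on the minus strand, 1 E-box variant, read here as AACGTG from the opposite strand, lies at -28.
Nr1d1: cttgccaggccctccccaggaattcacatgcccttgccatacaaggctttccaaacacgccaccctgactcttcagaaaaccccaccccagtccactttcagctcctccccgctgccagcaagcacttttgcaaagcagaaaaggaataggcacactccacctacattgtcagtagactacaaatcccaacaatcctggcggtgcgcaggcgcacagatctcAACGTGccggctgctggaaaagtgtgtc
Upstream of Cry1, at chr10:85185055-85185304 on the minus strand, an E-box lies at -60 and an E-box variant at -79.
Cry1: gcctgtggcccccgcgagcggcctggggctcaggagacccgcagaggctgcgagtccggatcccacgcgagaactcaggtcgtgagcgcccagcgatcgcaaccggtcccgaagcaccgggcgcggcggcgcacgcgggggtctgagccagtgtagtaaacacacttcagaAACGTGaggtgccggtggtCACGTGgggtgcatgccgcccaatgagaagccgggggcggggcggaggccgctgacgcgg
Per1 had an E-box at -166 in the first of its windows (chr11:69098771-69098800, plus strand), and Arntl a ROR element core at 31 bases after the start of the second of its windows (chr7:113207530-113207559, plus strand).
Per1 site: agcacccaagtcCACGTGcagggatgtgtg
Arntl site: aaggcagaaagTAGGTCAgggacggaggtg
Cry2 had an E-box variant at -166 (chr2:92434218-92434247, minus strand).
Cry2 site: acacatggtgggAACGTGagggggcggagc
CACGTG was present in 7.15% of all 32851 promoter windows, CACGTT in 4.68%, TTATGTAA in 0.938%, TTACGTAA in 0.119%, TAGGTCA in 2.61%, TGGGTCA in 3.98% and TGACGTCA in 1.79%. A match describes letters in a window and was not tested as a binding site.

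Array values are MAS5 signals, a linear brightness in arbitrary units in which every array has a 2% trimmed mean of 150. Pearson's r between arrays, over 11680 tested genes on the log2 scale, was 0.975 to 0.983 within wild-type, 0.979 to 0.985 within knock-in and 0.880 to 0.917 between the groups. The 4 sex-linked markers on the array separated the groups: Xist was high on all 3 knock-in arrays (mean signal 29.7 in wild-type and 3729.7 in knock-in), and the Y-linked Eif2s3y on all 3 wild-type arrays (687 and 5.04). Sex and genotype therefore cannot be told apart in any result below. The labels give no time of collection, so a difference in time of day between the groups cannot be told apart from genotype either. Skin markers were present: the 6 keratinocyte markers summed to signals of 27430 to 30393 in wild-type and 31528 to 39746 in knock-in, and 3 of the 6 passed the test, 2 higher and 1 lower. All 8 hair follicle markers fell (summed signal 28906 to 36241 and 11159 to 19768), 4 of 6 skeletal muscle markers fell and 0 rose (31692 to 49413 and 17853 to 29262), and 6 of 8 myeloid markers rose and 0 fell (3961 to 5572 and 19170 to 25687). Of those 6, Csf3r and Cxcr2 met the filter on dim signals through the 3 knock-in arrays alone, so they could be tested only because they were high there. No summed level was near 0 in either group, and among the myeloid markers Cxcr2 had a wild-type mean of 2.85. Fibroblast markers counted 1 higher and 1 lower of 5 (25580 to 32738 and 25819 to 29167), and adipocyte markers 1 higher and 0 lower of 3 (7874 to 11266 and 10636 to 12310). Of all genes tested, 31.1% passed the test, 14.8% higher and 16.3% lower. The fibroblast and adipocyte shares (40% and 33.3%) lie near that. In whole skin, fewer cells of a type and less RNA per cell cannot be told apart, and the part of these markers in the clock results was not tested. The 5' control probe set for 18S ribosomal RNA lay between 1314 and 2286 in wild-type and between 166 and 766 in knock-in. The middle one lay between 1009 and 1706 and between 410 and 919, also without overlap. The ranges of the 3' one overlapped (260 to 483 and 220 to 306). The difference in the 5' and middle controls cannot be told apart from genotype, and its part in the clock results was not tested.

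The comparison of knock-in with wild-type asks which transcripts of the clock loop differ between the groups. The activators Arntl and Clock were higher in knock-in, Per3 and both REV-ERB genes were lower, and Per1, Per2, Cry1 and Cry2 did not pass the test. On the log2(signal + 16) scale, with limma and Benjamini-Hochberg adjustment over all 11680 genes tested, 5 of the 9 core clock genes that passed the filter on dim signals were called at an adjusted p under 0.05, 2 higher and 3 lower (55.6%). Of all genes tested, 31.1% were called, 14.8% higher and 16.3% lower. The 3 lower genes, Per3, Nr1d1 and Nr1d2, were also at least 2-fold apart between the groups; 8.18% of all genes tested were called and at least 2-fold apart in either direction. Npas2 was below the filter, which asks for a signal above the array's median on at least 3 arrays. For the other 9 genes the median size of the log2 difference, regardless of sign, was 0.67, and over all genes tested it was 0.24. The signed median was 0.06 for the 9 clock genes and -0.02 for all genes, and the clock genes moved in both directions. The members were chosen with earlier results of these data known, so their shares and medians beside those of all genes are a description only. The same 2 higher and 3 lower genes were called when any 1 of the 6 arrays was left out.

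**Figure D1:**
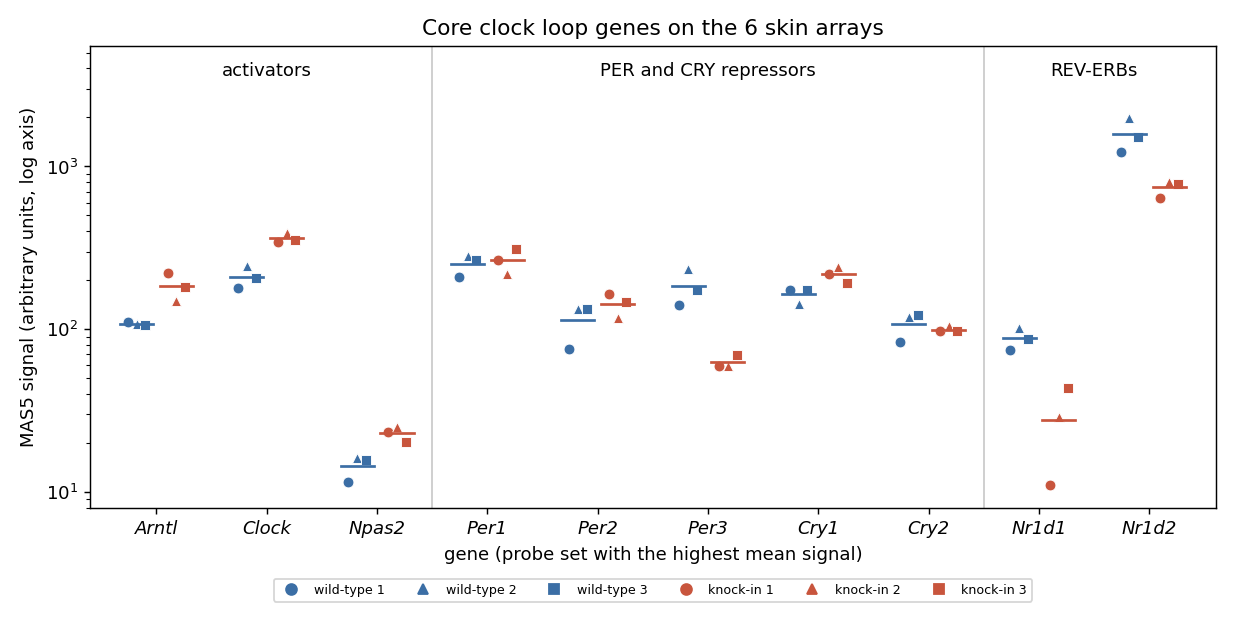
MAS5 signal of the 10 core clock genes on each array (log axis), with the probe set of highest mean signal for each gene. Points are arrays (circle, triangle and square for replicates 1, 2 and 3), and bars are group means. The knock-in arrays lie above the wild-type arrays for Arntl, Clock, Npas2 and Cry1, below them for Per3, Nr1d1 and Nr1d2, and overlap them for Per1, Per2 and Cry2.

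Among the activators, Arntl, the partner without which the loop stops, gave signals of 110, 108 and 106 on the wild-type arrays and 221, 149 and 183 on the knock-in arrays (probe set 1425099_a_at). The wild-type arrays were nearly equal, the knock-in arrays were spread, and the groups did not overlap. The mean went from 108 ± 1.87 to 184 ± 35.9 (SD, n = 3 in each group). The log2 difference was 0.67 ± 0.14 (SE, limma adjusted p = 0.00807, 95% interval 0.35 to 1.00). Clock, the histone acetyltransferase partner of ARNTL, gave 180, 246 and 206 in wild-type and 344, 388 and 356 in knock-in (1418659_at). All 3 knock-in arrays were above all 3 wild-type arrays. The mean of Clock went from 210 ± 33.4 to 363 ± 23.1. Its log2 difference was 0.75 ± 0.12 (adjusted p = 0.00271, 95% interval 0.47 to 1.03). Npas2, which can stand in for Clock, had signals of 11.5, 16.2 and 15.7 in wild-type and 23.4, 25.1 and 20.3 in knock-in (1421037_at), below the array median on every array. Those groups did not overlap, but the signals were close to the offset of 16, and without the filter its log2 difference was 0.35 ± 0.15 (limma adjusted p = 0.138). The other Npas2 probe set (1421036_at) stayed at or under 2.39 on every array.

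The calls for Arntl and Clock each rested on 1 probe set. The second Arntl probe set (1457740_at) gave 49.4, 55.8 and 52.8 in wild-type and 56.4, 44.7 and 51.4 in knock-in, a log2 difference of -0.04 ± 0.14 in the fit over all probe sets. Of the 3 other Clock probe sets, 1418660_at gave 107, 120 and 111 in wild-type and 173, 118 and 160 in knock-in, with knock-in replicate 2 inside the wild-type range. The 3 had log2 differences of 0.35 ± 0.15 (1418660_at), 0.27 ± 0.14 (1435775_at) and -0.27 ± 0.17 (1439314_at), and none of them passed. With the mean over all probe sets of a gene, Arntl had a log2 difference of 0.32 (adjusted p = 0.0773, in a range from 0.00239 to 0.0773 over 18 alternatives) and Clock 0.28 (adjusted p = 0.0823, in a range from 8.63e-04 to 0.0823 over 19). Each therefore lost its call under that summary.

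Per3 had the largest fall among the PER and CRY repressors. PER3 is the least essential of the PER proteins for keeping the rhythm, and its gene is among those driven through D-boxes. Per3 (1421087_at) gave signals of 141, 235 and 174 on the wild-type arrays and 59.1, 59.2 and 69.6 on the knock-in arrays. The lowest wild-type array was well above the highest knock-in array. The mean went from 183 ± 47.9 to 62.6 ± 6.01, a fall of 2.93-fold, with a log2 difference of -1.32 ± 0.18 (limma adjusted p = 9.90e-04). The size of this difference was above that of 95.3% of all genes tested. All 6 Per3 probe sets were lower on every knock-in array than on any wild-type array. The brightest of the others, 1458176_at, gave 126, 191 and 178 in wild-type and 54.7, 49.0 and 42.4 in knock-in. The 4 that passed the filter were all called lower, with log2 differences between -1.47 and -0.93. On each of the 6 probe sets, wild-type replicate 1 was the lowest wild-type array and replicate 2 the highest. The dim pair, 1460662_at and 1421086_at, had differences of -0.79 ± 0.23 and -0.53 ± 0.16 in the probe set fit without the filter, with limma adjusted p of 0.0510 and 0.0712.

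The other repressors did not pass. Per1, an early-induced PER gene that also answers to glucocorticoids and cAMP, gave 209, 283 and 265 in wild-type and 268, 217 and 310 in knock-in (1449851_at), so the groups overlapped over most of their ranges. Its log2 difference was 0.06 ± 0.15 (limma adjusted p = 0.790, 95% interval -0.29 to 0.41), and it was -0.060 without wild-type replicate 1 and -0.052 without knock-in replicate 3. Per2, whose product is a main target of the clock kinases, gave 75.7, 134 and 133 in wild-type and 165, 118 and 146 in knock-in (1417602_at). Wild-type replicate 1 was low and the groups overlapped. The difference was 0.31 ± 0.21 (adjusted p = 0.288, interval -0.16 to 0.79). It was 0.077 without wild-type replicate 1 and 0.12 with the mean over probe sets, and the 2 other Per2 probe sets, which also overlapped between the groups, gave 0.14 ± 0.21 and -0.09 ± 0.17.

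Cry1, the stronger of the CRY repressors, gave signals of 174, 144 and 175 in wild-type and 219, 242 and 192 in knock-in (1433733_a_at). The groups did not overlap, and the mean went from 164 ± 18 to 218 ± 24.9. Its log2 difference of 0.37 ± 0.13 lay just outside the threshold (limma adjusted p = 0.0510, in a range from 0.0177 to 0.151 over 19 alternatives). It passed after quantile normalization (adjusted p = 0.0407), after centring each array on its median (0.0177), with a stricter filter (0.0479) and with the mean over probe sets (0.0457). The stricter filter and the mean over probe sets left the Cry1 signal, which comes from 1 probe set, and its log2 difference unchanged. Cry2 gave 83.0, 119 and 122 in wild-type and 97.0, 104 and 97.1 in knock-in (1426383_at), with the knock-in arrays inside the wild-type range. Its log2 difference was -0.09 ± 0.15 (adjusted p = 0.683, interval -0.44 to 0.25), and 0.041 after median centring. Leaving out wild-type replicate 1, 2 or 3 gave -0.25, -0.021 and -0.0049. These intervals do not show that Per1, Per2 or Cry2 were equal in the groups.

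Both REV-ERB genes fell. Nr1d1, which encodes the haem-binding repressor REV-ERB alpha, gave 75, 102 and 87.5 on the wild-type arrays and 11, 28.9 and 43.4 on the knock-in arrays (1426464_at). The knock-in arrays were all below the wild-type arrays and differed among themselves, with knock-in replicate 1 the lowest. The mean went from 88.2 ± 13.6 to 27.8 ± 16.2, a log2 difference of -1.32 ± 0.27 (limma adjusted p = 0.00728). The knock-in signals are close to the offset, so the value moves with it, to -1.81 at an offset of 1 and to -0.74 at 64, both past the threshold. Nr1d1 met the filter through the 3 wild-type arrays and 1 knock-in array. Nr1d2, encoding REV-ERB beta, gave 1225, 1976 and 1523 in wild-type and 644, 806 and 781 in knock-in (1416958_at). Its mean went from 1575 ± 378 to 743 ± 87.2, a fall of 2.12-fold with a log2 difference of -1.05 ± 0.17 (adjusted p = 0.00239). The second Nr1d2 probe set (1416959_at) gave 102, 147 and 121 in wild-type and 67.1, 70.5 and 51.4 in knock-in. It also fell without overlap, by 0.82 ± 0.16 on the log2 scale (limma adjusted p = 0.00538 in the probe set fit). On both Nr1d2 probe sets wild-type replicate 2 was the highest array.

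Over all probe sets of the 10 genes, 19 of 23 passed the filter and 9 of those 19 (47.4%) were called in the fit over 23153 probe sets, 2 higher and 7 lower. In that fit 30.3% of all probe sets were called, 13.0% higher and 17.3% lower. Probe sets of 1 gene read the same transcripts and are not independent, and 4 of the 7 lower calls were Per3. The groups did not overlap for 11 of the 19 (57.9%), against 46.4% of all probe sets tested. At the level of genes, 6 of the 9 tested members did not overlap, against 47.1% of all genes tested. As the members were chosen with earlier results known, these shares too are a description only. Within the wild-type group, replicate 1 was the lowest wild-type array for 8 of the 10 genes, the exceptions being Arntl and Cry1, and replicate 2 was the highest for 7.

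**Figure D2:**
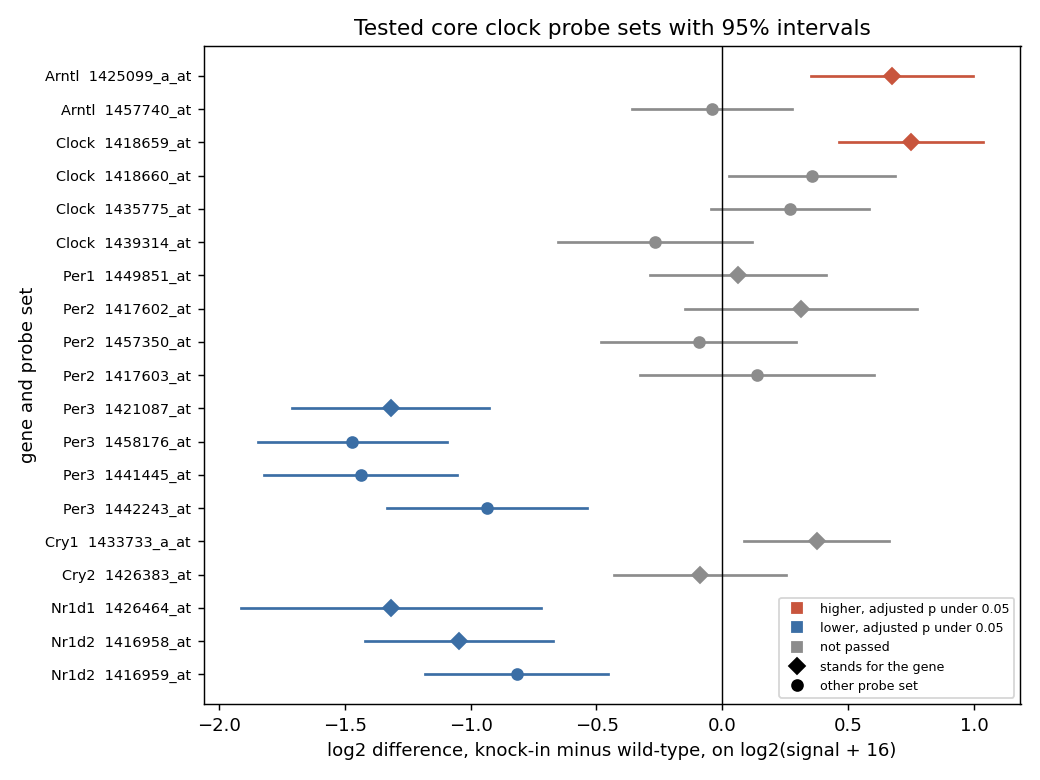
Log2 difference, knock-in minus wild-type, of the 19 core clock probe sets that passed the filter, with 95% intervals from the fit over all probe sets. Diamonds mark the probe set that stood for its gene, and colour marks the call. All 4 Per3 probe sets and both Nr1d2 probe sets lie below 0, while those of Arntl and Clock spread from -0.27 to 0.75.

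Pairs of members were compared within each array, as differences of log2(signal + 16). For 3 arrays against 3 the exact permutation test cannot go below p = 0.1, so none of the 6 pairs could pass after adjustment. The difference of Arntl and Nr1d1, which peak at opposite times of day in most tissues, changed by 1.99 ± 0.46 on the log2 scale (SE), and the groups did not overlap (two-sided exact permutation p = 0.1, adjusted 0.20). Nr1d1 is close to the offset in knock-in, and the change was 2.56 at an offset of 1 and 1.26 at 64, both without overlap. Relative to the wild-type mean, the knock-in arrays were at 2.87, 1.62 and 1.48, and the wild-type arrays at 0.21, -0.19 and -0.02. Per1 minus Per3 changed by 1.38 ± 0.14, again without overlap (exact p = 0.1, adjusted 0.20). Clock minus Npas2 changed by 0.40 ± 0.08 without overlap (exact p = 0.1, adjusted 0.20), but by 0.16 with overlap at an offset of 1. The differences for Cry1 minus Cry2 (0.46 ± 0.22, exact p = 0.2), Per1 minus Per2 (-0.25 ± 0.16, exact p = 0.3) and Nr1d1 minus Nr1d2 (-0.27 ± 0.27, exact p = 0.5) overlapped between the groups, and the last of these was -0.75 at an offset of 1 and 0.26 at 64.

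**Figure D3:**
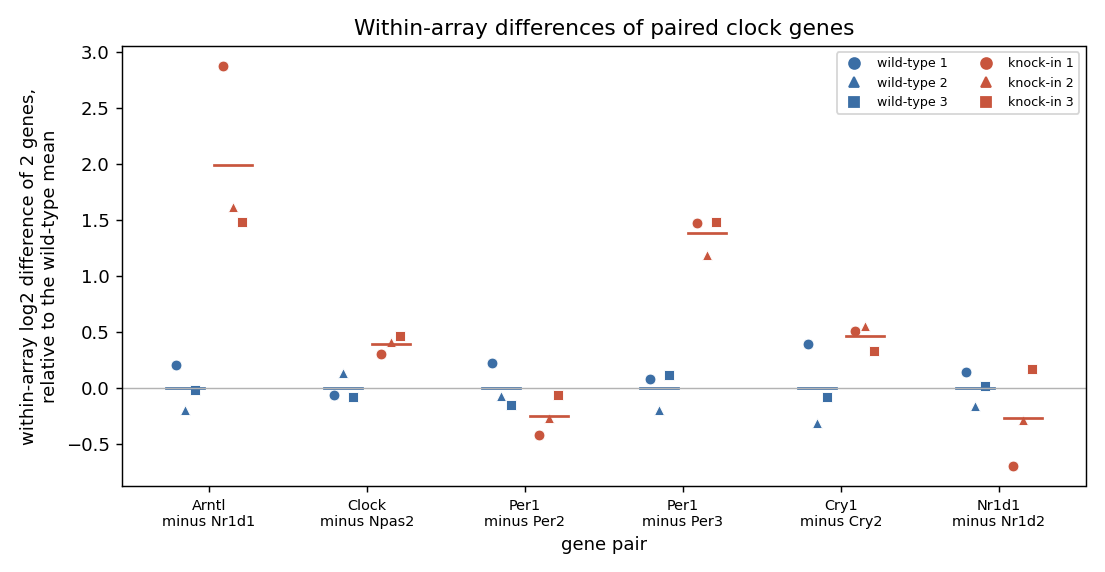
Within-array log2 difference of 2 genes, relative to the mean of the wild-type arrays, for 6 pairs of core clock genes. Points are arrays and bars are group means. The knock-in arrays stand clear of the wild-type arrays for Arntl minus Nr1d1, where they lie between 1.48 and 2.87, and for Per1 minus Per3. They also do so for Clock minus Npas2, where they lie between 0.31 and 0.47.

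Output factors of the loop were examined as a list of 9 genes, of which 8 were tested. Of these, 7 were called (87.5%, against 31.1% of all genes tested), 3 higher and 4 lower, and Wee1 did not pass (0.15 ± 0.10). The list was chosen with earlier results of these data known, so its share beside that of all genes is a description only. Dbp, an activator of D-box genes and a direct E-box target of the clock, gave 721, 1305 and 1123 on the wild-type arrays and 98.8, 111 and 130 on the knock-in arrays (1438211_s_at). Every knock-in array was far below the lowest wild-type array. Its mean went from 1049 ± 299 to 113 ± 15.5, a fall of 9.28-fold, with a log2 difference of -3.01 ± 0.20 (limma adjusted p = 3.46e-05). For Dbp the difference was smaller without probe sets suffixed _s_at or _x_at (-2.48) and with the mean over probe sets (-2.74), and it passed in both. Tef, of the same PAR bZIP family, gave 585, 847 and 786 in wild-type and 419, 456 and 482 in knock-in. Hlf, the remaining member of that family, gave 104, 149 and 128 and then 83.9, 72.8 and 78.9. Neither overlapped between the groups, and Tef and Hlf fell by 0.67 ± 0.14 and 0.59 ± 0.14 on the log2 scale (adjusted p = 0.00736 and 0.0153). Usp2, a deubiquitinase with a rhythmic transcript, fell by 0.52 ± 0.12 (adjusted p = 0.0111). In the other direction, Nampt gave 380, 395 and 336 in wild-type and 529, 514 and 573 in knock-in, and Nfil3 gave 252, 198 and 281 and then 427, 313 and 359. Every knock-in array was above every wild-type array for both. Nampt, the enzyme of NAD+ salvage, rose by 0.52 ± 0.10, Nfil3, the repressor at D-boxes, by 0.56 ± 0.15 and Bhlhe40, which encodes the E-box repressor DEC1, by 0.41 ± 0.10 (adjusted p = 0.00465, 0.0246 and 0.0148). Nfil3 and Bhlhe40 each lost the call when some single arrays were left out, Nfil3 on leaving out knock-in replicate 1 or 3 or wild-type replicate 2 and Bhlhe40 on leaving out knock-in replicate 1 or wild-type replicate 3, as did Hlf without wild-type replicate 3 (adjusted p between 0.0514 and 0.0827 in these cases). Hlf also lost it with the mean over probe sets (-0.41, adjusted p = 0.0758), where 6 output genes were called. Hlf, Nfil3 and Bhlhe40 were named after their values were seen.

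Calls among regulators of the loop were few and varied with the probe sets used. They are the kinases, ubiquitin ligases, ROR activators, cofactors and deacetylases that set the level or stability of the core proteins. Of 19 genes, 16 were on the array with a symbol of their own and 13 were tested. Of these 13, 0 rose and 2 fell in limma's test (15.4%, below the 31.1% of all genes), with a median log2 difference of -0.08. The regulator list was also chosen with earlier results of these data known, so its share is a description only. With the mean over probe sets 1 rose and 3 fell of 13, where 3343 of all 11680 genes were called. Without probe sets suffixed _s_at or _x_at 1 rose and 2 fell of 12. Sirt1, an NAD+-dependent deacetylase that acts on PER2 and ARNTL, gave 365, 351 and 406 on the wild-type arrays and 283, 281 and 256 on the knock-in arrays, without overlap. It fell by 0.43 ± 0.10 on the log2 scale (adjusted p = 0.0115). Csnk1e, the casein kinase that marks PER proteins for degradation, had means of 474 ± 44.8 and 357 ± 46.7 (-0.40 ± 0.12, adjusted p = 0.0364). Neither passed after median centring, where adjusted p was 0.0571 and 0.148, and Csnk1e lost its call on leaving out replicate 1 or 3 of either group (adjusted p between 0.0850 and 0.126). Ep300, a coactivator of the ARNTL pair, and Ciart, a repressor of it, had differences of -0.28 ± 0.11 and -0.35 ± 0.16 that did not pass (adjusted p = 0.0920 and 0.124). Rora, which activates Arntl through ROR elements, had a difference of 0.13 ± 0.17, and was named after its values were seen.

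Signals that reset peripheral clocks were read through 12 genes, of which 11 were tested and 8 called (72.7%, against 31.1% of all genes), 6 higher and 2 lower. This list too was chosen with earlier results of these data known, so the shares cannot be read as a test. All 6 glucocorticoid-responsive genes rose, with log2 differences from 0.59 to 2.45. Fkbp5, a co-chaperone of the glucocorticoid receptor, gave 375, 419 and 369 in wild-type and 2421, 1809 and 2398 in knock-in, a rise of 5.69-fold with a log2 difference of 2.45 ± 0.13 (limma adjusted p = 8.62e-06). Dusp1 gave 595, 586 and 442 in wild-type and 2813, 1736 and 2525 in knock-in. For both genes knock-in replicate 2 was the lowest knock-in array and still far above the wild-type arrays. Dusp1, a phosphatase of MAP kinases, rose by 2.07 ± 0.19, Zbtb16, a transcriptional repressor, by 1.35 ± 0.17 and the kinase Sgk1 by 0.59 ± 0.08. With the mean over probe sets Zbtb16 had a difference of 0.85 and Fkbp5 of 1.71, and both passed. Several of these genes also respond to other stimuli. Per1, described above as answering to glucocorticoids too, had a difference of 0.06 ± 0.15 with a 95% interval of -0.29 to 0.41. Its relation to these genes was not tested. Of 5 tested temperature-responsive genes, 0 rose and 2 fell in limma's test, the heat shock genes Hspa1a (-0.66 ± 0.11) and Hspa1b (-0.34 ± 0.09), whose near-identical sequences may share probes. Both were named after their values were seen, as was the cold-induced Cirbp, which had a difference of 0.01 ± 0.15.

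**Figure D4:**
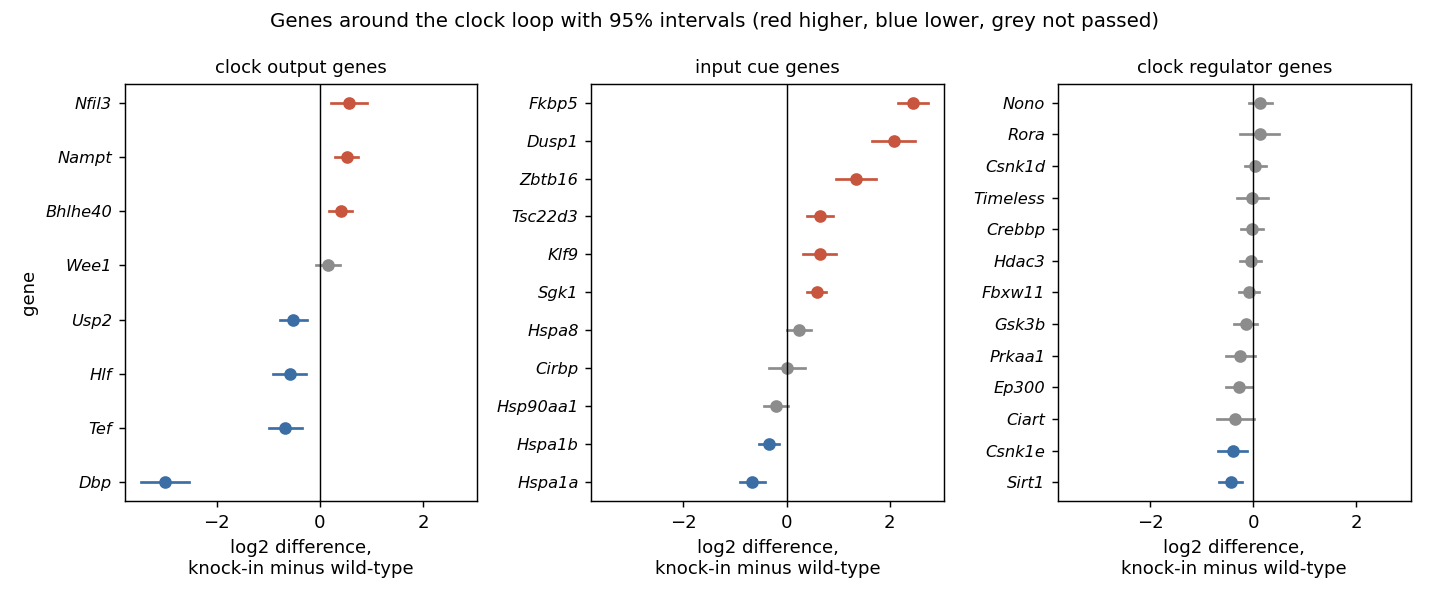
Log2 difference, knock-in minus wild-type, of the tested clock output, input cue and clock regulator genes, with 95% intervals from the fit over all genes. Red marks genes called higher, blue lower and grey not passed. Dbp stands lowest at -3.01 and Fkbp5 highest at 2.45, and the regulators lie between -0.43 and 0.14.

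The tested genes whose profiles over the 6 arrays were closest to that of Arntl, by root mean square distance of log2 values centred on each gene's mean, were Fam53a (0.06), Mpp6 (0.08) and Praf2 (0.08). They had log2 differences of 0.64, 0.73 and 0.63. Closest to Nr1d1 were Nkg7 (0.15), a granule protein of cytotoxic lymphocytes, H2-DMb2 (0.17), a chaperone of MHC class II loading, and Glb1l2 (0.20). Their differences were -1.18, -1.43 and -1.12. Nkg7 met the filter through the 3 wild-type arrays alone, so it could be tested only because it was high there. All these genes were picked for profiles close to that of Arntl or Nr1d1, so differences of the same sign follow from the choice. The distance is a description over 6 arrays of these groups.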

How the data were processed

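The deposited values are signal intensities made by the authors with MAS5, per the submitters' processing notes (version and settings not given in the sources used here); every array has the same trimmed mean, and further differences between the arrays' distributions were not removed. The table has 45101 probe sets, of which 64 controls were left out. Symbols came from the platform annotation (34945 probe sets with 1 symbol, 932 with several, 9160 with none); 34741 matched RefSeq GRCm38.p6 by gene ID, and 0 symbols changed. The probe set with the highest mean stood for a gene. Genes above their array's median on at least 3 arrays were tested, 11680 of 18193, and a second fit ran over 23153 probe sets. limma 3.58.1 in R 4.3.3 (lmFit, eBayes with trend, two-sided) was run on log2(signal + 16), which understates folds of dim genes, with Benjamini-Hochberg adjustment and a threshold of 0.05. Signal errors are SDs, errors of log2 differences standard errors (median 0.13). The number of arrays limits the precision. Members and lists were chosen with earlier results of these data known; by rule, all core genes, the 4 members of each other list with the smallest p and the 3 nearest genes to Arntl and Nr1d1 are named. Some listed genes have no probe set of their own here and were not analysed. Alternatives covered offset, filter, normalization, variance prior, array weights, probe set summary, pairing, sex chromosomes and single arrays.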

Additional observations from a re-analysis of the deposited data

How the results depend on the processing

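Per3, Nr1d1 and Nr1d2 stayed lower and past the threshold under each alternative that tested them (18, 18 and 19). Of the core clock genes 5 of 9 were called in the main fit. With a stricter filter only 4 were tested and 3 called, Clock, Cry1 and Nr1d2, and the core clock probe sets called were also 3 of 4. Core clock genes called numbered 4 of 9 with the mean over probe sets, namely Cry1, Per3, Nr1d1 and Nr1d2. They numbered 6 of 9, the main 5 and Cry1, after quantile normalization or median centring, where 10 and 11 of 19 probe sets were called. Called regulators, 2 of 13 in the main fit, numbered 1 without a filter, 0 after median centring and 0 with the replicate block. They numbered 4 with the mean over probe sets, 3 of 12 without probe sets suffixed _s_at or _x_at, and 1 to 2 with an array left out. Genes called over the whole array ranged from 2383 to 3365 with an array left out, against 3637; the lowest was without wild-type replicate 3. Median centring moved the median log2 difference of all genes from -0.02 to 0.11 and the share of calls that were higher from 47.5% (1729 higher, 1908 lower) to 68.1% (2567 and 1202). Array medians were 41.9 to 45.7 in wild-type and 37.5 to 40.8 in knock-in. Centring on them therefore raised every log2 difference by the same amount. Cry2 turned to 0.041 after median centring, Per1 lay between -0.060 and 0.19 with an array left out, and Nr1d1 minus Nr1d2 was 0.26 with an offset of 64. The cause of the lower knock-in medians and of the other changes was not tested. Deviations of same-numbered arrays correlated at -0.25, -0.41 and -0.02; with the replicate block 2449 genes, the same 5 core clock genes, 5 output and 7 cue genes passed; Hlf and Bhlhe40 did not (adjusted p = 0.0512 and 0.0541). Alternatives for the single regulator, output and cue genes were chosen after seeing the data. Dim signals limit Npas2 and Nr1d1.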
